A study of Homo sapiens with 8 samples.

Results

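The genes described here are 43 genes of the endoplasmic reticulum (ER) and the early secretory pathway, chosen by symbol from the 27945 genes in the count table, and all 43 passed the filter on low counts that left 12844 genes for testing. They fall into 5 roles: 12 chaperones and folding factors, 5 enzymes that make disulfide bonds, 7 genes of ER-associated degradation, 9 sensors and transcription or feedback factors of the unfolded protein response, and 10 genes of translocation into the ER and transport out of it. The assay was fastGRO-seq, in which polymerases in isolated nuclei extend their transcripts with 4-thio-UTP and the labeled RNA is captured and sequenced, so the counts report ongoing transcription. The cells were IMR90, human diploid lung fibroblasts, carrying an estrogen receptor fusion of H-RASG12V (ER:RAS) in every group. The 4 groups had 2 libraries each: control cells, labeled WT and without an shRNA, and senescent cells with shControl, shMETTL3 or shMETTL14, in which RAS was activated with 100 nM 4-hydroxytamoxifen and which were harvested on day 6 under the study's general protocol. Control cells carried no shRNA, so where they are set against senescent shControl cells, senescence and shRNA carriage cannot be told apart. METTL3 and METTL14 are the subunits of the nuclear m6A methyltransferase complex, and each knockdown was compared with senescent shControl cells.

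Proteins bound for secretion enter the ER through the SEC61 channel, fold with the help of chaperones and protein disulfide isomerases, and leave in COPII vesicles, while misfolded proteins are extracted for degradation in the cytosol. When unfolded proteins accumulate, 3 ER membrane sensors respond. IRE1 (encoded by ERN1) splices XBP1 mRNA, ATF6 is cleaved to release a transcription factor, and PERK (EIF2AK3) phosphorylates eIF2α, which favors translation of ATF4 and raises its targets DDIT3, TRIB3 and PPP1R15A. Senescent fibroblasts are known for secreting many proteins.

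The libraries held 14897360 to 20306299 counts, of which 86.2% to 92.5% lay in ribosomal RNA rows, which left 1513930 to 2048475 for the remaining genes. METTL3 had 77 and 47 counts in senescent shControl cells and 16 and 19 with shMETTL3 (log2 fold change -2.04 ± 0.31 (SE), adjusted p = 1.8e-05). The count of METTL14 went from 24 and 28 under shControl to 18 and 14 under shMETTL14, a difference that did not pass the threshold (-0.86 ± 0.34, adjusted p = 0.076). METTL14 was already lower in shControl than in control cells, which had 60 and 55 counts (-0.76, adjusted p = 0.047). It was called lower with shMETTL14 than with shMETTL3 (-1.41, adjusted p = 0.001) and than in control cells (-1.61, adjusted p = 0.00012). Of the 12 fibroblast markers 11 were tested and VIM, FN1 and COL1A1 were among the abundant ones. The epithelial KRT5 and ESRP1 and the hematopoietic CD3E and HBB had 0 counts in every library, but other markers of those lineages were detected. The summed raw count of the 7 epithelial markers ran from 15 to 65, that of the 6 endothelial markers from 16 to 133 and that of the 7 hematopoietic markers from 1 to 7. The 2 libraries of shMETTL3 differed most from each other, by 4.78 times the sampling noise against 1.49 to 2.36 in the other groups. The labels do not say whether the replicates came from separate cultures, so p-values rest only on the spread between these libraries. That spread was estimated from all 8 libraries together, so errors and p-values of comparisons with shMETTL3 may understate its larger spread.

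Levels are given as normalized counts, the raw count of a gene divided by the TMM-scaled size of its library and set to the mean library, and adjusted p-values are from edgeR's quasi-likelihood test with Benjamini-Hochberg adjustment over all 12844 genes. A gene was called at an adjusted p under 0.05. The counts took no account of strand, so overlapping genes share reads. Among the genes described here this touches SEC61A1, which shares 35.7% of its length with RUVBL1 on the opposite strand, and EIF2AK3, which shares 26.6% with LOC101928371. SEC31A shares 8.68% of its length with THAP9-AS1, and the other overlaps cover at most 5.84% of a gene.

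Per kilobase of gene, the chaperones CALR and HSPA5 held the first 2 places in every group. The other chaperones were spread down the list, with DNAJC3 at place 39 of 43 in control cells. In control cells CALR (calreticulin) had 180.5 normalized counts per kilobase, HSPA5 (BiP, the main ER chaperone and the brake on the stress sensors) had 108 and ATF4 had 49.9. In senescent shControl cells HSPA5 came first at 230.5 and CALR second at 214, and with shMETTL14 CALR stood at 119.5, HSPA5 at 91.6 and PPP1R15A next at 82.3. The sensors were at the other end, with ATF6 at 0.697 and ERN1 at 0.435 per kilobase in control cells. The 43 genes together took 0.679% and 0.688% of all counts outside ribosomal RNA in the control libraries and 0.939% and 0.913% in the senescent shControl libraries. With shMETTL3 their share was 0.744% and 0.722%, and with shMETTL14 it was 0.707% and 0.706%. This share is itself a scaling of each library by its counts outside ribosomal RNA, without the TMM factors. On it the shControl libraries lay above the other 6.

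Relative to other genes, transcription of most of the ER genes rose in senescent shControl cells. Compared with control cells, 26 of the 43 genes were called higher and 0 lower, where 13.3% of all genes tested were called higher and 13.3% lower (26.6% in either direction), and the median log2 fold change of the 43 genes was 0.60 beside -0.03 over all genes. At an unadjusted p under 0.05 edgeR had 27 of them higher and 0 lower. DESeq2 called 17 higher and 0 lower (26 and 0 unadjusted), where it called 9.6% of all genes higher and 7.1% lower. Chaperones, disulfide enzymes and degradation genes made up 19 of the 26, with 9 of 12, 5 of 5 and 5 of 7 called. Of the 9 sensors and factors 4 rose, and of the 10 translocation and transport genes 3 rose. For 32 of the 43 genes the lower shControl library still exceeded the higher control library, beside 31.5% of all genes tested, and for 3 genes the reverse held, beside 34.5%.

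The size of these rises depends on the scaling. When counts were scaled by total library size alone, which the ribosomal RNA rows dominate, the median of all genes moved to -0.53 and that of the 43 genes to 0.10, with 4 of them called higher and 6 lower, where 5.9% of all genes were higher and 39.0% lower. A change of scaling moves all genes nearly alike, so the difference between the 2 medians stayed at 0.63 and is no check of the result. Every direction given here is a direction against the remaining genes of those libraries. Without replicate 1 of senescent shControl 14 of the 43 genes were called higher. The sign turned under library size alone for DNAJC3 and SEL1L among the 26.

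HSPA5 (hg19 chromosome 9, 127997127 to 128003666, minus strand) had 679 and 737 normalized counts in control cells and 1510.0 and 1505 in senescent shControl cells. It was 2.13-fold higher (log2 fold change 1.09 ± 0.13 (SE), adjusted p = 2.67e-07), and the groups lay far apart beside the spread within them. HSP90B1 (GRP94, the ER member of the HSP90 family; chromosome 12, 104324112 to 104341708) had 714 and 747 in control and 1313 and 1265 in shControl cells, a 1.76-fold rise (0.82 ± 0.14, adjusted p = 4.42e-05). MANF, a small secreted factor that binds BiP, rose from 39.0 and 27.0 to 67.4 and 66.8 (1.02 ± 0.27, adjusted p = 0.00556). The co-chaperones DNAJB9, DNAJB11 and DNAJC3, the lectin chaperone CANX, the calcium-binding CALU and the nucleotide exchange factor HYOU1 were also called higher, with log2 fold changes of 0.48 to 1.02. The chaperones not called were CALR (0.24, adjusted p = 0.195), SDF2L1 (0.80, adjusted p = 0.318) and CRELD2 (0.05, adjusted p = 0.937). SDF2L1 had under 23 normalized counts in every library, and its 2 shControl libraries stood at 8.28 and 22.3.

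**Figure D1:**
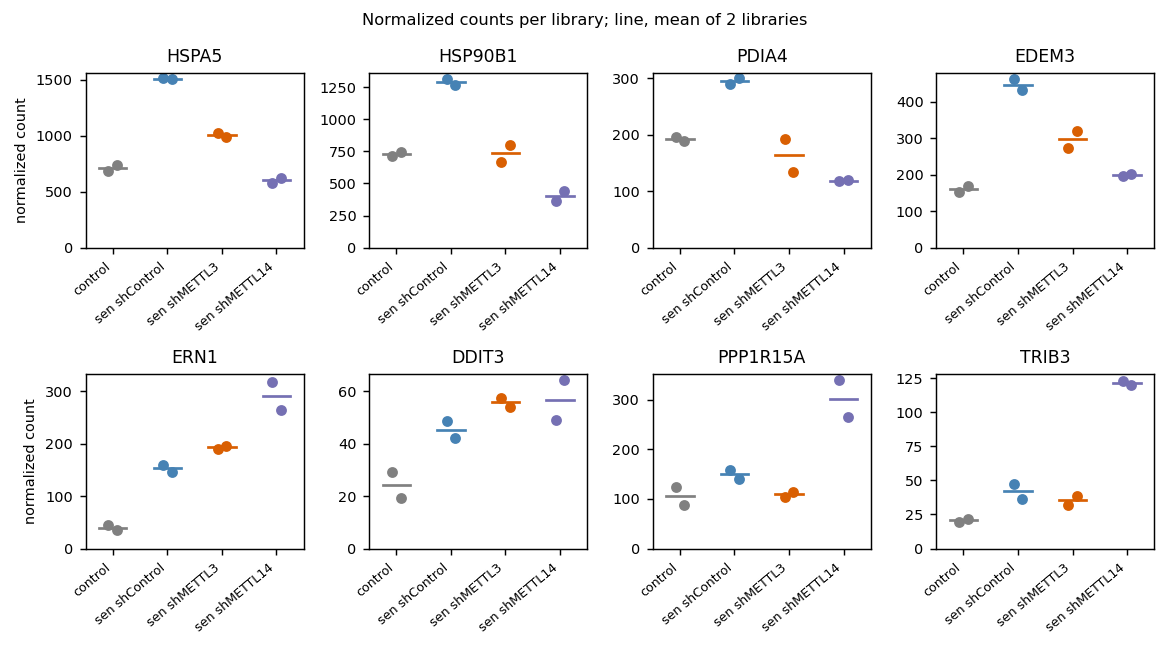
Normalized counts (vertical axes, from 0) of 8 genes in the 2 libraries of each group, with a line at the mean. HSPA5, HSP90B1, PDIA4 and EDEM3 were highest in senescent shControl cells, whereas PPP1R15A and TRIB3 were highest with shMETTL14, where TRIB3 reached 123 and 120.0.

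All 5 disulfide enzymes rose together, between 0.55 (PDIA6) and 0.96 (ERO1A, the oxidase that recharges the isomerases). PDIA4, a protein disulfide isomerase, had 195 and 189 normalized counts in control and 290 and 299 in shControl cells (0.62 ± 0.16, adjusted p = 0.00341). Among the degradation genes the largest change was that of EDEM3, a mannosidase-like protein that marks misfolded glycoproteins (chromosome 1, 184659625 to 184724041). EDEM3 had 152 and 169 in control and 463 and 432 in shControl cells (1.48 ± 0.14, adjusted p = 5.09e-09). Its relative EDEM1 rose by 0.95, the membrane adaptor HERPUD1 by 0.80, DERL1 by 0.60 and the ligase adaptor SEL1L by 0.44. SYVN1, the ubiquitin ligase, had 21.2 and 45.3 in control and 65.0 and 42.3 in shControl cells, and neither it nor DERL2 passed the test (adjusted p = 0.107 and 0.565). The library pairs of SYVN1 overlapped.

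Of the 3 sensors, ERN1 alone was called in this comparison, and differences between the sensors were not tested. ERN1 (chromosome 17, 62116502 to 62207502) had 44.3 and 34.8 normalized counts in control and 160 and 147 in shControl cells, a 3.87-fold rise and the largest of the 43 (1.95 ± 0.20, adjusted p = 1.21e-08). EIF2AK3 had 93.9 and 101 in control and 83.9 and 79.0 in shControl cells (-0.26 ± 0.19, adjusted p = 0.348). ATF6 had 140 and 136 against 170 and 151 (0.22 ± 0.16, adjusted p = 0.336). XBP1 had 73.5 and 88.0 in control and 92.2 and 93.5 in shControl cells (0.20 ± 0.20, adjusted p = 0.501), and ATF4 had 112 and 99.3 against 89.8 and 102 (-0.14 ± 0.21, adjusted p = 0.692). DDIT3 (CHOP, a transcription factor tied to cell death under stress) rose from 29.2 and 19.2 to 48.5 and 42.3 (0.90 ± 0.30, adjusted p = 0.0241). TRIB3, a pseudokinase that DDIT3 and ATF4 induce, rose by 1.02, and PPP1R15A (GADD34, which brings the phosphatase to eIF2α) by 0.51 with an adjusted p of 0.0449. Over the 17 alternative fits of the senescence comparison PPP1R15A was called in 9, with log2 fold changes of 0.01 to 0.78 and adjusted p-values up to 0.98. SEL1L and DNAJC3 were called in 10, DERL1 in 11 and DDIT3, HYOU1 and KDELR3 in 12. CREB3L2, a transcription factor of the secretory pathway related to ATF6, did not pass the test (-0.06).

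Among the 10 translocation and transport genes 3 were called. The translocon-associated proteins SSR1 (0.54) and SSR3 (0.71) rose, while the channel subunits SEC61A1 (0.19, adjusted p = 0.328) and SEC61B (0.33, adjusted p = 0.361) and the COPII coat genes SEC23A (0.24), SEC24D (-0.02) and SEC31A (0.00) did not pass. The KDEL receptors return escaped ER proteins from the Golgi. KDELR3 had 51.4 and 61.0 normalized counts in control and 91.0 and 94.6 in shControl cells (0.72 ± 0.21, adjusted p = 0.0117). KDELR2 had 331 and 321 against 288 and 308 (-0.13 ± 0.14, adjusted p = 0.537). SPCS2, a subunit of the signal peptidase, stood at 0.02.

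**Figure D2:**
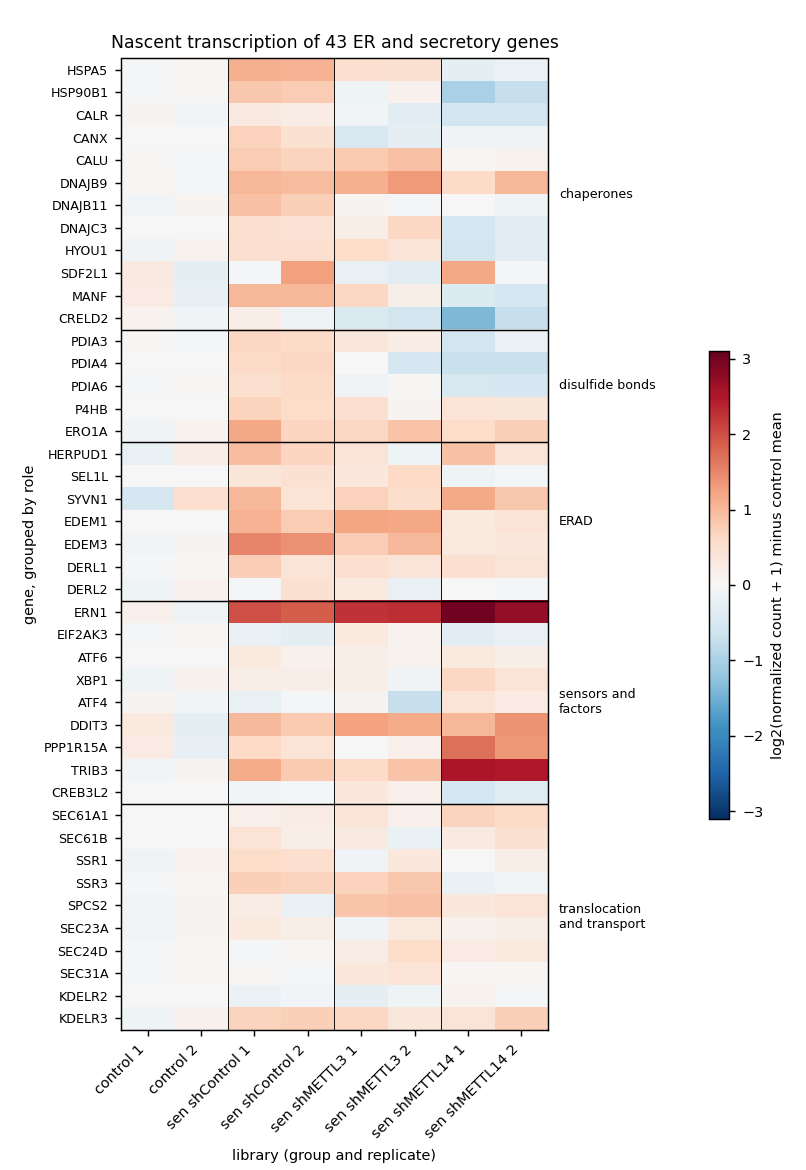
Each row is a gene, grouped by role, and each column a library; color gives log2(normalized count + 1) minus the mean of the 2 control libraries. Most chaperone, disulfide and degradation genes were high in the senescent shControl columns, and 16 of these 24 were called lower with shMETTL14, and ERN1 was high in all 6 senescent libraries.

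Knockdown of METTL3 in senescent cells lowered a subset of the folding genes. Compared with senescent shControl cells 10 of the 43 genes were called lower and 3 higher, where 11.2% of all genes tested were called lower and 12.3% higher (23.4% in either direction), and the median log2 fold change was -0.15 beside -0.03 over all genes. Chaperones gave 5 of the 10 (CANX, DNAJB11, HSP90B1, HSPA5 and CALR), disulfide enzymes 2 (PDIA4 and PDIA6), degradation genes 2 (HERPUD1 and EDEM3) and transport 1 (SSR1). Over the 17 alternative fits HERPUD1 was called in 12 (adjusted p up to 0.85), SSR1 in 11 (up to 0.4) and CALR in 13 (up to 0.5). Of the 9 sensors and factors edgeR called 0, with 3 higher and 1 lower at an unadjusted p under 0.05, and DESeq2 called 0 with 0 unadjusted. Both shMETTL3 libraries lay below both shControl libraries for 17 of the 43 genes, beside 30.6% of all genes, and above them for 10, beside 27.8%.

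CANX (calnexin, the membrane-bound lectin chaperone; chromosome 5, 179125930 to 179158639) fell from 1537 and 1298 normalized counts to 664 and 766, 1.98-fold lower (-0.99 ± 0.14, adjusted p = 6.05e-06). PDIA4 fell from 290 and 299 to 192 and 134 (-0.86 ± 0.16, adjusted p = 0.000233). DNAJB11, a co-chaperone of BiP, fell from 144 and 128 to 81.0 and 72.2 (-0.83 ± 0.19, adjusted p = 0.00184). HSP90B1 fell to 671 and 801 (-0.81 ± 0.14, adjusted p = 9.52e-05). HSPA5 fell to 1022 and 986 (-0.59 ± 0.13, adjusted p = 0.00146). For all 5 genes the 2 groups did not overlap, and HSPA5 remained above both control libraries (0.50 ± 0.13 against control, adjusted p = 0.003).

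The 3 genes called higher were all of the transport group. SPCS2 (chromosome 11, 74660292 to 74690076) rose from 57.9 and 42.3 normalized counts to 90.3 and 93.0 (0.88 ± 0.22, adjusted p = 0.00528). SEC24D, which selects cargo for COPII vesicles, had 447 and 479 against 547 and 699 (0.43 ± 0.14, adjusted p = 0.0274), and SEC31A, the outer coat, had 700 and 666 against 861 and 920.0 (0.38 ± 0.13, adjusted p = 0.0336). This count fell to 0 without shControl replicate 2 and to 1 without shControl replicate 1, shMETTL3 replicate 2 or either control replicate. Among the sensors EIF2AK3 had 120.0 and 104 with shMETTL3 (0.46 ± 0.19, adjusted p = 0.0808), ERN1 190 and 197 (0.34 ± 0.16, adjusted p = 0.141) and ATF6 157 and 149 (-0.07 ± 0.16, adjusted p = 0.791). XBP1 (-0.15, adjusted p = 0.629), ATF4 (-0.14, adjusted p = 0.694), DDIT3 (0.30, adjusted p = 0.458), KDELR2 (-0.09, adjusted p = 0.676) and KDELR3 (-0.23, adjusted p = 0.454) did not pass either. ATF4 stood at 112 and 63.6 in the 2 shMETTL3 libraries, a gap wider than that between the group means.

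Library size alone moved the median of all genes to 0.58 in this comparison and that of the 43 genes to 0.46, with 18 called higher and 0 lower, where 41.2% of all genes were higher and 2.7% lower, and the sign of HSPA5, CALR, PDIA6, EDEM3 and SSR1 turned. The distance between the medians was -0.12 on either scale, which again follows from a scaling that moves all genes nearly alike. CANX, PDIA4, DNAJB11, HSP90B1 and HERPUD1 kept a negative log2 fold change under each of the 5 other scalings, though over the alternatives it was as small as -0.36 (CANX), -0.25 (PDIA4), -0.21 (DNAJB11), -0.18 (HSP90B1) and -0.07 (HERPUD1), and none was called under library size alone.

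Knockdown of METTL14 lowered most of the chaperones and raised TRIB3, PPP1R15A and ERN1. Compared with senescent shControl cells 19 of the 43 genes were called lower and 4 higher, where 12% of all genes tested were called lower and 9.15% higher (21.2% in either direction), and the median log2 fold change was -0.23 beside 0.00 over all genes. Of the 12 chaperones 10 fell, of the 5 disulfide enzymes 3 and of the 7 degradation genes 3. SEC61A1 was the fourth gene called higher. DESeq2 called 15 lower and 4 higher, beside 7.4% and 4.4% of all genes. Both shMETTL14 libraries lay below both shControl libraries for 20 of the 43 genes, beside 32.1% of all genes, and above them for 11, beside 32.2%. Library size alone moved the median of all genes to 0.35 and gave 11 lower and 9 higher, where 5.5% of all genes were lower and 24.6% higher, with the sign of none of the 23 called genes turned.

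HSP90B1 fell furthest, from 1313 and 1265 normalized counts with shControl to 363 and 443 with shMETTL14, a 3.20-fold fall (-1.68 ± 0.14, adjusted p = 2.44e-09). MANF (chromosome 3, 51422668 to 51426828) fell from 67.4 and 66.8 to 24.0 and 22.1 (-1.53 ± 0.29, adjusted p = 0.000371). HSPA5 fell from 1510.0 and 1505 to 579 and 619 (-1.33 ± 0.13, adjusted p = 2.82e-08). PDIA4 (chromosome 7, 148700154 to 148725782) fell from 290 and 299 to 118 and 119 (-1.31 ± 0.17, adjusted p = 1.35e-06). For each of these 4 genes both shMETTL14 libraries were the lowest of the 8. Compared with control cells HSP90B1 (-0.86, adjusted p = 2.25e-05) and PDIA4 (-0.70, adjusted p = 0.00154) were called lower, and HSPA5 (-0.24, adjusted p = 0.153) was not. EDEM3 fell from 463 and 432 to 197 and 201 (-1.17 ± 0.14, adjusted p = 6.86e-07), and PDIA6, CRELD2, PDIA3, HYOU1, DNAJC3, DNAJB11, CALR, CANX and CALU fell by 0.65 to 1.11 on the log2 scale. DNAJB9 (-0.18) and SDF2L1 (-0.06) were the chaperones not called.

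TRIB3 (chromosome 20, 361273 to 378203) rose from 47.3 and 36.7 normalized counts to 123 and 120.0, 2.89-fold higher (1.53 ± 0.23, adjusted p = 1.61e-05). PPP1R15A (chromosome 19, 49375649 to 49379319) rose from 158 and 140 to 339 and 265 (1.02 ± 0.17, adjusted p = 7.63e-05). ERN1 rose from 160 and 147 to 319 and 265 (0.93 ± 0.16, adjusted p = 7.78e-05), on top of its rise in shControl cells, and stood 2.88 ± 0.18 above control on the log2 scale. SEC61A1, the pore of the ER channel, rose from 640 and 677 to 934 and 870 (0.45 ± 0.13, adjusted p = 0.0164), where the raw counts of the overlapping RUVBL1 ran from 429 to 701 over all libraries. The other 2 sensors did not pass. EIF2AK3 had 77.0 and 83.2 with shMETTL14 (-0.02 ± 0.20, adjusted p = 0.95) and ATF6 had 169 and 159 (0.03 ± 0.16, adjusted p = 0.925). XBP1 had 127 and 107 (0.34 ± 0.19, adjusted p = 0.23), ATF4 143 and 126 (0.48 ± 0.21, adjusted p = 0.104) and DDIT3 49.0 and 64.2 (0.32 ± 0.27, adjusted p = 0.443). KDELR2 stood at 352 and 320.1 (0.17 ± 0.14, adjusted p = 0.418) and KDELR3 at 74.0 and 93.7 (-0.15 ± 0.21, adjusted p = 0.66). SSR3 fell by 0.86 and was called in all 17 alternative fits of this comparison. SSR1 fell by 0.46 and CREB3L2 by 0.40, but SSR1 was called in 11 of the 17 (adjusted p up to 0.69) and CREB3L2 in 7 (up to 0.85). CRELD2 was called in 12 (up to 0.27), SEL1L in 13 (up to 0.5), and EDEM1 and SEC61A1 in 14 (up to 0.4 and 0.17).

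**Figure D3:**
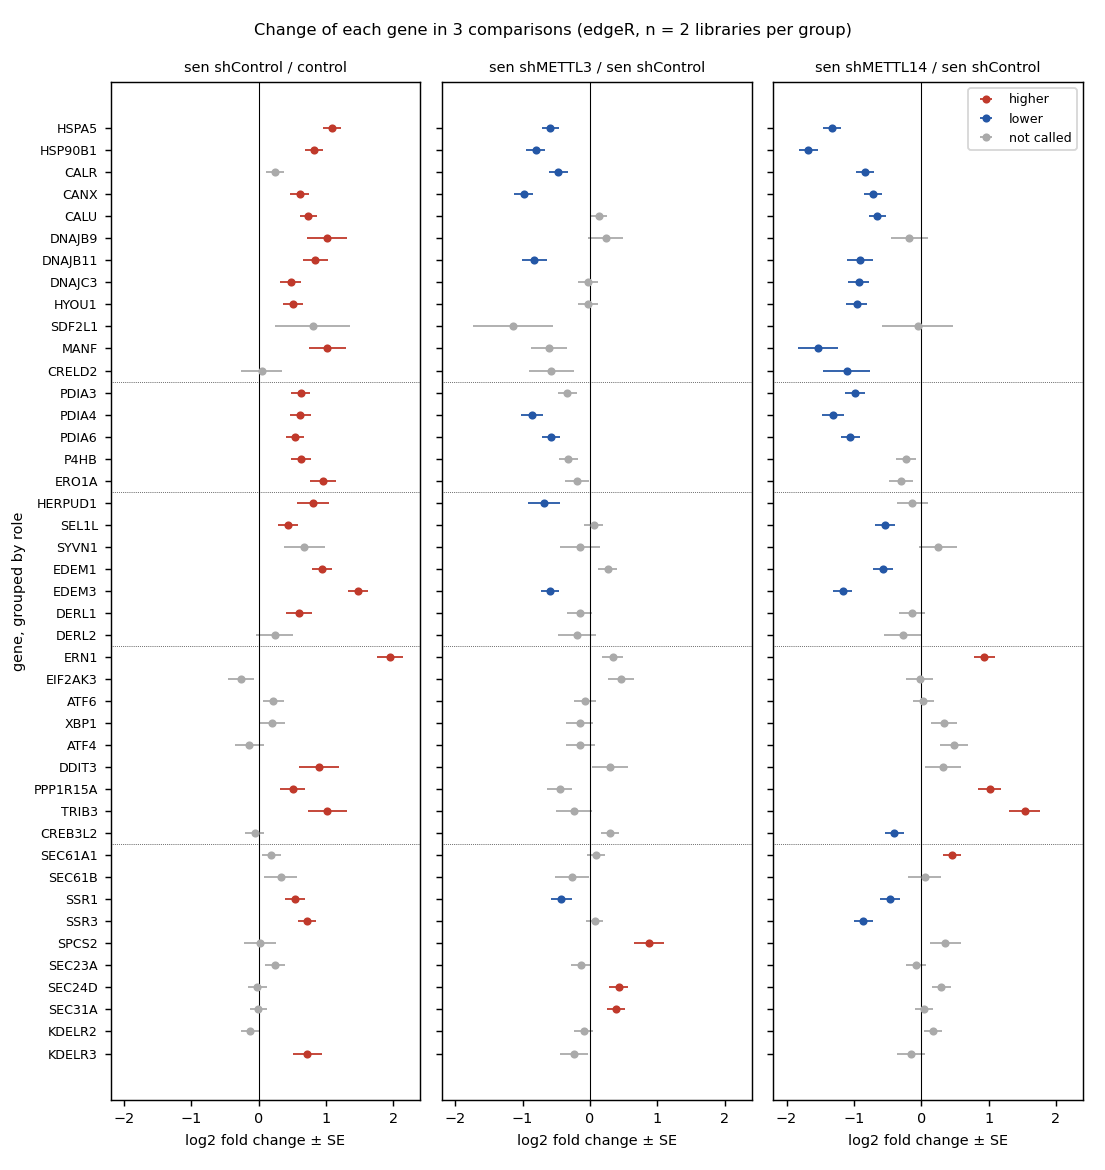
Log2 fold change with its standard error for each gene in 3 comparisons, colored by call. Red points (higher) mark 19 of the 24 chaperone to degradation rows of the left panel, and blue points (lower) mark 10 of the 12 chaperone rows of the right panel, where TRIB3, PPP1R15A, ERN1 and SEC61A1 lie to the right of 0.

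The summed normalized count of the fibroblast markers moved with several of these groups. It was 43700 and 40790 in control cells and 31500 and 32980 in senescent shControl cells. Under shMETTL3 it was 35880 and 30690, and under shMETTL14 it was 16990 and 20370. Of the 11 markers tested 6 were called lower and 1 higher in senescent shControl cells, 2 lower and 2 higher with shMETTL3, and 9 lower and 0 higher with shMETTL14. In senescence 6 of the markers fell where 26 of the ER genes rose. Markers of other cell types moved too. KRT18, an epithelial keratin, had 12 and 13 raw counts under shMETTL3 and 43 and 32 under shMETTL14, and it and CLDN4 were the 2 epithelial markers tested and both called higher between these knockdowns (1.63 and 2.51). Both were also higher with shMETTL14 than in control (0.89 and 3.57), and CLDN4, with at most 13 raw counts, was called higher in senescence (2.68, adjusted p = 0.049). The endothelial TEK had 105 and 123 raw counts in control, 37 and 48 in shControl cells, 49 and 68 under shMETTL3 and 13 and 26 under shMETTL14, and was called lower in senescence (-1.04), with shMETTL14 against shControl (-1.27) and against shMETTL3 (-1.52). The senescence state also differed between the groups. CDKN1A, the p21 cell cycle inhibitor, rose in senescence (1.12) and again with shMETTL14 (1.01, adjusted p = 6.5e-06), from 726 and 744 raw counts to 1817 and 1498, and was not called with shMETTL3 (-0.28, adjusted p = 0.17). CDKN2B, the p15 inhibitor, also rose in senescence (2.31), rose again with shMETTL3 (0.94, adjusted p = 0.00014), was not called with shMETTL14 (0.12, adjusted p = 0.69) and was lower with shMETTL14 than with shMETTL3 (-0.82, adjusted p = 0.00027). MKI67, a proliferation marker, had 224 and 201 raw counts in control, 25 and 53 in shControl cells and at most 3 in each knockdown library. HRAS, whose reads can come from the cell's own gene or the RAS transgene, rose in senescence (0.81), fell with shMETTL3 (-0.70, adjusted p = 0.00054) and was not called with shMETTL14 (0.23, adjusted p = 0.24), where it was 0.94 above shMETTL3 (adjusted p = 7.8e-06). The part of these shifts in the ER gene results was not tested. Fewer cells of a state and less transcription per cell cannot be told apart in such bulk libraries.

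The 2 knockdowns were compared with each other directly, since a call in one and not in the other does not show a difference. With shMETTL14 17 of the 43 genes were lower than with shMETTL3 and 6 were higher, where 18.7% of all genes tested were lower and 16.5% higher (35.2% in either direction). Both shMETTL14 libraries lay below both shMETTL3 libraries for 20 of the 43, beside 32.8% of all genes, and above them for 12, beside 33.5%. The 17 held 7 chaperones, 3 disulfide enzymes, 3 degradation genes, 2 sensors and factors (CREB3L2, at -0.70 with an adjusted p of 0.000252, and EIF2AK3) and 2 transport genes (SSR3 and SEC31A), and the 6 held 5 of the 9 sensors and factors (TRIB3, PPP1R15A, ATF4, ERN1 and XBP1) and SEC61A1. TRIB3 had 31.8 and 38.9 normalized counts with shMETTL3 and 123 and 120.0 with shMETTL14 (1.77 ± 0.23, adjusted p = 1.05e-06). PPP1R15A had 104 and 115 against 339 and 265 (1.47 ± 0.18, adjusted p = 3.04e-07). ATF4 had 112 and 63.6 against 143 and 126 (0.63 ± 0.21, adjusted p = 0.0211). At the other end SSR3 had 527 and 575 against 277 and 302 (-0.93 ± 0.14, adjusted p = 5.49e-06), HYOU1 268 and 237 against 121 and 144 (-0.93 ± 0.16, adjusted p = 3.66e-05) and MANF 51.3 and 37.0 against 24.0 and 22.1 (-0.93 ± 0.31, adjusted p = 0.0201). HSPA5 (-0.75, adjusted p = 7.99e-05), HSP90B1 (-0.87, adjusted p = 3.13e-05) and EIF2AK3 (-0.49, adjusted p = 0.045) were lower as well, ERN1 (0.60, adjusted p = 0.0029) and XBP1 (0.49, adjusted p = 0.0483) were higher, and ATF6 (0.10), DDIT3 (0.02), KDELR2 (0.27) and KDELR3 (0.08) were not called. CANX, which fell in both knockdowns, differed by 0.27 ± 0.14 (adjusted p = 0.131). Over the 17 alternative fits of this comparison EIF2AK3 was called in 4 (adjusted p up to 0.25), XBP1 in 5 (up to 0.45) and SEC61A1 in 7 (up to 0.64). Among the 17 lower genes PDIA4 and SEC31A were called in 4 (up to 0.49 and 0.41) and CALR in 6 (up to 0.34). The 6 genes called higher became 3 without shMETTL3 replicate 2, 2 without shMETTL14 replicate 1 and 3 with DESeq2, which called 9.4% of all genes higher.

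**Figure D4:**
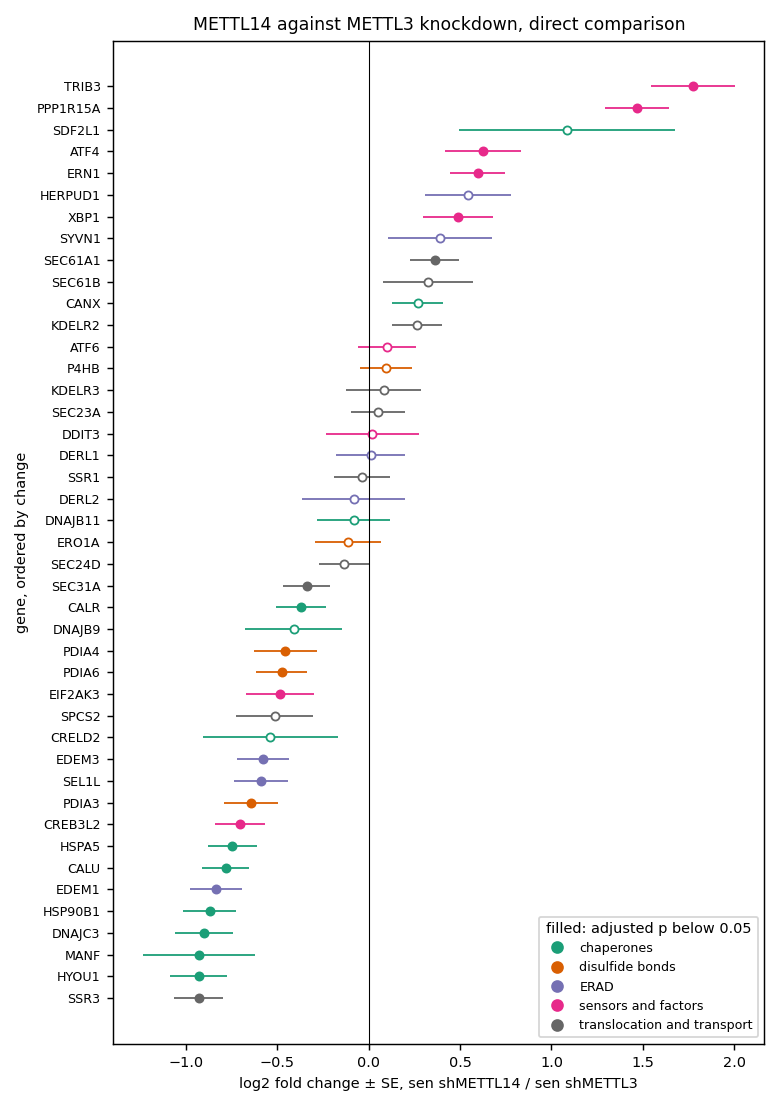
Log2 fold change with its standard error of each gene between senescent shMETTL14 and senescent shMETTL3 cells, ordered by size and colored by role, with called genes filled. The sensors and factors called higher (TRIB3, PPP1R15A, ATF4, ERN1, XBP1) lie toward the top, among uncalled genes such as SDF2L1 and HERPUD1, those called lower (CREB3L2, EIF2AK3) lie left of 0, and chaperones (HYOU1, MANF, DNAJC3, HSP90B1) and SSR3 at the bottom.

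The senescent knockdown cells were also compared with control cells. These comparisons share the control libraries with the comparison of shControl cells, so their values are only set side by side. With shMETTL3 16 of the 43 genes were called higher and 1 lower, where 20.1% of all genes were called higher and 20.1% lower (40.2% in either direction), and 9 were higher without control replicate 1. With shMETTL14 13 were called higher and 8 lower, where 19.7% and 20.5% of all genes were (40.2% in either direction), and 5 were higher without control replicate 1. The 8 lower became 4 without shMETTL14 replicate 1 and 5 without control replicate 2. ERN1 stood 1.95 above control with shControl, 2.29 with shMETTL3 and 2.88 with shMETTL14, and DDIT3 stood at 0.90, 1.20 and 1.22. EDEM3 stood at 1.48 with shControl and 0.89 with shMETTL3 and was not called with shMETTL14. TRIB3 stood at 1.02, 0.78 and 2.55.

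The promoters of these genes hold elements known from the unfolded protein response. The ER stress response element (ERSE, CCAAT, 9 bases of any kind, CCACG) is bound by NF-Y with ATF6 or XBP1, and ERSE-II is ATTGG, 1 base of any kind, CCACG. RefSeq promoter windows (250 bases before to 50 after the start, GRCh38.p14) were found for 39 of the 43 genes and searched on both strands. ERSE was present in 7 of the 39 (17.9%) and in 0.0916% of the 27305 genes with a window, and ERSE-II in 3 of the 39 (7.69%) and in 0.0696%. The 43 genes were chosen for roles in the ER and the unfolded protein response, so their higher shares are not a result of these data. The sites are shown because the genes that hold them include HSPA5, HSP90B1 and CANX, whose changes are described above. MANF, PDIA4 and EDEM3, also described above, held neither element in these windows. Each is written 5′ to 3′ on the strand that reads the motif, with 4 bases on each side and the fixed parts of the motif in capitals.
HSPA5: ttcaCCAATcggcggcctCCACGacgg
HSP90B1, far site: ctgaCCAATcggaaggagCCACGcttc
HSP90B1, near site: cccaCCAATcgcgccgcaCCACGcacc
CANX: ccggCCAATcttcacactCCACGaaga
CALR: ccgaCCAATgatggtcgaCCACGcgtg
CRELD2: tggcCCAATccgagttcgCCACGagag
PDIA6: cggaCCAATgagccgcagCCACGgctt
XBP1: ctggCCAATcgcggagggCCACGaccg
HYOU1, far site: tgggATTGGaCCACGtcac
HYOU1, near site: actcATTGGaCCACGtccc
HERPUD1: gccgATTGGgCCACGttgg
SDF2L1: tttgATTGGtCCACGcttc

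The HSPA5 element lay at chr9:125241391-125241409, at positions -66 to -48 from the start, and the HSP90B1 elements at chr12:103930216-103930234 and chr12:103930321-103930339, the first on the strand of the gene and the second on the opposite strand. The CANX element lay at chr5:179698778-179698796, that of CALR at chr19:12938384-12938402 and that of PDIA6 at chr2:10812853-10812871. The remaining ERSE sites were at chr22:49918554-49918572 (CRELD2) and chr22:28800603-28800621 (XBP1). The ERSE-II sites were at chr11:119057380-119057390 and chr11:119057274-119057284 (HYOU1), chr16:56932025-56932035 (HERPUD1) and chr22:21642114-21642124 (SDF2L1). Of the 7 genes with ERSE 4 were called higher in senescence, 5 lower with shMETTL3 and 6 lower with shMETTL14, with medians of 0.54, -0.58 and -1.05. Of the 10 genes with ERSE or ERSE-II 6, 6 and 7 were so called, with medians of 0.58, -0.58 and -0.9. Of the 29 genes with a window and neither element 18, 4 and 11 were so called, with medians of 0.62, -0.13 and -0.18. The shares over all genes were 13.3%, 11.2% and 12%, and the 4 of 29 lower with shMETTL3 lie near theirs. XBP1 was the ERSE gene not called in any of the 3 comparisons. The difference between genes with and without an element was not tested, and 7 of the 10 genes with one are chaperones.

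UPRE (TGACGTGG), a second element, was found in 4 of the 39 genes (10.3%: SSR3, HYOU1, SEC23A and KDELR3) and in 0.927% of all genes with a window. The choice of the genes limits this share in the same way. UPRE also resembles the elements above. It contains the CCACG of the other elements on its opposite strand, and in HYOU1 it overlapped the far ERSE-II site. An ATF4 element (TGATG, 1 base of any kind, AA and 1 further base) was found in 2 of the 39 (5.13%; CREB3L2 and HERPUD1) and in 4.45% of all genes. TRIB3, PPP1R15A and DDIT3 held no such match in these 300 bases.

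**Figure D5:**
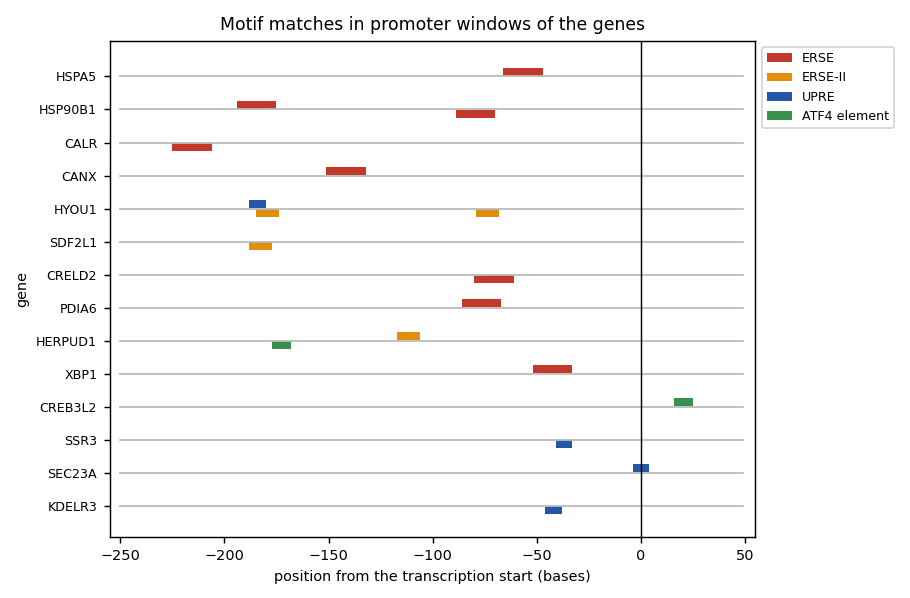
Position of motif matches from the transcription start (0, horizontal axis in bases) in the promoter windows of the 14 genes with a match; bars above a line read on the strand of the gene and bars under it on the opposite strand. The ERSE matches lie between positions -225 and -34.

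The rest of the pathway was read from lists of related genes, whose counts stand beside the all-gene shares given above (13.3% higher and 13.3% lower in senescence, 12.3% and 11.2% with shMETTL3, and 9.15% and 12% with shMETTL14). Of 40 further ER folding and degradation genes tested, 15 were called higher and 1 lower in senescence, 1 higher and 12 lower with shMETTL3, and 0 higher and 16 lower with shMETTL14, with medians of 0.35, -0.24 and -0.42. The 15 higher were 37.5% of the list, and the 12 and 16 lower were 30% and 40%. For the 0, 1 gene was higher at an unadjusted p under 0.05, and DESeq2 had 0 on either scale. CLGN, a calnexin relative known from testis, had 14 and 11 raw counts in control and 73 and 74 in shControl cells (2.93 ± 0.29, adjusted p = 1e-08). TMX4, a membrane thioredoxin-like protein, rose in senescence by 2.42 and fell with shMETTL14 by 1.65, from 295 and 299 raw counts to 96 and 115. DNAJC10, a reductase of the degradation pathway, fell in both knockdowns (-1.21 with shMETTL3 and -1.46 with shMETTL14), from 306 and 293 raw counts to 139 and 163 and to 126 and 118. SERPINH1, the collagen chaperone, was the gene called lower in senescence (-0.58, adjusted p = 0.0063), and the lectin gene ERLEC1 fell with shMETTL14 (-1.66). The glucosidase gene MOGS rose in senescence (1.04), and with shMETTL3 DNAJC1 rose (0.66) while QSOX1 (-0.79) and CLGN (-0.78) fell.

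A further 30 genes of the unfolded protein and integrated stress responses were tested. In senescence 8 were called higher and 4 lower, with shMETTL3 2 and 5, and with shMETTL14 9 and 1, with medians of 0.14, -0.27 and 0.30. The higher calls were 26.7% of the list in senescence and 30.0% with shMETTL14, while the lower calls in senescence (13.3%) matched the share over all genes and those with shMETTL3 (16.7%) were near it. ATF3, a stress-induced transcription factor, had 18 and 11 raw counts in control and 37 and 30 in shControl cells. It had 57 and 65 under shMETTL3 and 116 and 88 under shMETTL14, and was called higher in senescence (1.58) and with shMETTL14 (1.44). SESN2 rose with shMETTL14 (1.82) and with shMETTL3 (0.71), and TXNIP rose in senescence (1.51) and with shMETTL14 (1.15). STC2, a secreted glycoprotein induced by ER stress, fell in each comparison (-0.37, -1.08 and -0.95), and CREB3L1, a relative of CREB3L2 that drives collagen transcription, fell in senescence (-0.94). With shMETTL3 DDIT4 fell (-0.89) from 46 and 52 raw counts to 37 and 24. In senescence ASNS rose (1.07) and NFE2L2 fell (-0.54), and with shMETTL3 EIF2AK4 rose (0.61) and MBTPS1, which cleaves ATF6, fell (-0.57).

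Of 51 further translocation and COPII genes 14 were called higher and 1 lower in senescence, 2 and 6 with shMETTL3, and 0 and 10 with shMETTL14, with medians of 0.34, -0.21 and -0.15. The 14 higher were 27.5% of the list and the 10 lower 19.6%, while the lower calls with shMETTL3 (11.8%) were near the share over all genes and the higher ones (3.92%) under it. For the 0, 3 genes were higher at an unadjusted p under 0.05, and DESeq2 had 0 on either scale. TMED9, a cargo receptor, rose in senescence (1.08) and fell with shMETTL3 (-1.01), from 149 and 149 raw counts in control to 244 and 237, and back to 142 and 135 under shMETTL3. TRAM1, a translocon partner, fell in both knockdowns (-0.78 and -1.15), SEC62 (-1.63) and the cargo receptor LMAN1 (-1.01) fell with shMETTL14, and TRAM2, which assists collagen synthesis, fell in senescence (-0.99). The signal recognition genes SRPRB (0.99) and SRP54 (0.94) rose in senescence, and with shMETTL3 SEC22B (0.46) and SEC63 (0.37) rose and TMED2 fell, from 221 and 199 raw counts to 109 and 135.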

How the data were processed

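Nascent RNA of 8 libraries was sequenced from directional libraries, aligned to hg19 (the submitters' notes name STAR and deepTools 3.3) and counted by the authors with HOMER across each gene body, exons and introns alike. The deposited values are raw counts per gene, without normalization, with replicates kept apart. Although a strand was set, 52 of 52 genes inside an opposite-strand gene never exceeded the outer gene, so strands were not separated.

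Here edgeR 4.0.16 (R 4.3.3) fitted all 8 libraries (TMM, filterByExpr with a minimum count of 10, glmQLFit and glmQLFTest), with a Benjamini-Hochberg threshold of 0.05. The biological coefficient of variation was 10.6%. DESeq2 1.42.0, other scalings and filters, 2-group fits, a replicate block and each library left out were the alternatives (17 fits). The script was tested on simulated data. The members and lists were chosen with earlier results of these data known. Named are the up to 4 called members with the largest change in each direction (3 between the knockdowns, and 3 with at least 20 counts from each further list), and HSPA5, DDIT3, XBP1, ATF4, ERN1, EIF2AK3, ATF6, KDELR2 and KDELR3; other members are summarised. Scaling to the added Drosophila nuclei was not applied.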

Additional observations from a re-analysis of the deposited data

How the results depend on the processing

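Depth limits the low genes: SDF2L1, DDIT3, DNAJB9 and MANF rest on few counts, and errors rest on 2 libraries per group. Counts were not scaled to a spike-in, so a uniform shift of transcription would go undetected. Library size alone gave 4 higher and 6 lower in senescence, 18 and 0 with shMETTL3 and 9 and 11 with shMETTL14, whose all-gene shares stand above. Between the knockdowns it gave 2 higher, beside 9.2% of all genes. It gave 0 lower for shMETTL3 against control and 6 higher for shMETTL14 against control, beside 15.8% and 14.2%. With shMETTL3 library size alone turned the sign of the called genes EDEM3 (0.033), HSPA5 (0.029), CALR, PDIA6 and SSR1. The uncalled ATF6 (0.545), HYOU1 (0.581), KDELR2 (0.525), DNAJC3 (0.594) and SEC23A (0.501) also turned, and it called them higher. Among the other named genes the sign of ATF4, XBP1, KDELR3, TRIB3, PPP1R15A and MANF also turned, with no call on either scale. Library size without ribosomal RNA rows, chosen after seeing the data, gave 1 higher with shMETTL3, where 9.3% of all genes were higher. Between the knockdowns it gave 11 lower, beside 12.9% of all genes. For shMETTL3 against control it gave 9 higher and 4 lower, beside 14.8% and 28.7%. DESeq2 gave 17 higher in senescence, beside 9.6% of all genes, and 3 higher between the knockdowns, beside 9.4%. It gave 0 lower for shMETTL3 against control, beside 12.3%, and 7 higher and 5 lower for shMETTL14 against control, beside 13.8% and 14.3%. Fitting the 2 groups compared gave 1 higher with shMETTL3 and 3 higher between the knockdowns. Leaving out ribosomal RNA rows gave 0 lower for shMETTL3 against control, beside 18.9% of all genes. For these counts the cause was not tested, beyond the scaling itself.

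With a library left out, the calls in senescence ran from 14 to 26 higher and 0 to 0 lower, with shMETTL3 from 0 to 3 higher and 7 to 13 lower, and with shMETTL14 from 3 to 5 higher and 14 to 19 lower. Between the knockdowns they ran from 2 to 7 higher and 12 to 15 lower. Against control they ran from 9 to 17 higher and 0 to 3 lower with shMETTL3, and from 5 to 15 higher and 4 to 9 lower with shMETTL14, where 8 were higher without shMETTL14 replicate 1, and 5 lower without control replicate 2. Libraries share a replicate number only: the correlation of same-numbered deviations ran from -0.0409 to 0.166. With the replicate number as a block, the calls were 26 higher and 0 lower in senescence, 3 and 10 with shMETTL3, 4 and 19 with shMETTL14 and 6 and 17 between the knockdowns.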

Other observations

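Genes of steps next to the ER folding machinery were read from 2 further lists in the same fit. Of 38 genes of N-glycosylation tested, 10 were called higher and 1 lower in senescent shControl cells, 3 and 2 with shMETTL3, and 0 and 5 with shMETTL14, with median log2 fold changes of 0.32, -0.14 and 0.02. The higher calls in senescence were 26.3% of the list beside 13.3% of all genes. Those with shMETTL3 (7.89% and 5.26%) were under the 12.3% and 11.2% of all genes, and the lower calls with shMETTL14 (13.2%) were near the 12% of all genes. For the 0, 2 genes were higher at an unadjusted p under 0.05, and DESeq2 had 0 on either scale. GFPT2, a rate-setting enzyme for the sugar donor of glycosylation, had 20 and 16 raw counts in control cells and 181 and 154 in senescent shControl cells (3.60 ± 0.23 (SE), adjusted p = 1.2e-12), and 194 to 235 in the knockdown libraries. STT3A, a catalytic subunit of the oligosaccharyltransferase, fell with shMETTL3 (-0.93, adjusted p = 2e-04), and the subunits MAGT1 (-1.39) and OSTC (-1.37) fell with shMETTL14. TUSC3, the paralog of MAGT1, rose with shMETTL3 (0.69), as did ALG14 (1.11) and ALG3 (0.88), while UAP1 fell (-0.63). In senescence DAD1 (0.73) and PGM3 (0.71) rose and PMM2 (-0.60) fell, and ALG11 fell with shMETTL14 (-1.09).

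Of 43 genes of COPI vesicles and the Golgi, 5 were called higher and 2 lower in senescence, 4 and 7 with shMETTL3, and 3 and 12 with shMETTL14, with medians of 0.12, 0.01 and 0.02. In senescence these were 11.6% and 4.65% of the list, not above the 13.3% of all genes in either direction, and with shMETTL3 9.3% and 16.3% beside 12.3% and 11.2%. With shMETTL14 the lower calls were 27.9% beside 12% and the higher calls 6.98% beside 9.15%. The small GTPase gene ARF4 rose in senescence (0.72), and ARF3 (0.69) and ARF1 (0.51) rose with shMETTL14. The Golgi tether GCC2 was called in all 3 comparisons, higher in senescence (0.63) and with shMETTL3 (0.51) and lower with shMETTL14 (-0.77). In senescence the tether USO1 rose (0.71) and CUX1 (-0.53) and GOLGA3 (-0.39) fell. With shMETTL3 TRIP11 (0.67) and GOLGB1 (0.58) rose and ARF5 (-1.20), YKT6 (-1.15) and RAB1B (-0.96) fell, and with shMETTL14 CUX1 rose (0.49) and COPG2 fell (-1.28), as did GOLGA1, from 46 and 42 raw counts to 29 and 20.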
